A study of Caenorhabditis elegans with 83 samples.

Results

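Small RNA reads were counted on a pair of unc-119 genes in Caenorhabditis elegans: CB-unc-119, a row that only the SX1263 count files hold, and the worm's own unc-119 (WBGene00006843, sequence name M142.1). They are 2 of the 20449 gene rows in the SX1263 files, and unc-119 is 1 of the 20390 rows in the EG6089 files. Both were taken by name and identifier, not by a cut on any measured value, though with earlier results of these data known. UNC-119 is a chaperone that binds lipid-modified proteins and carries them to membranes and cilia. In the worm it is made in neurons, and its loss gives uncoordinated animals with disordered axons. Because the C. briggsae copy of the gene rescues such animals, it is widely placed on transgenes as a selection marker, and CB-unc-119 is read here, from its name alone, as that copy. Germline genes and transgenes in the worm can be targets of small RNAs that RNA-dependent RNA polymerases make on their transcripts, and dsRNA taken up with food starts such a response, which can pass to descendants.

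The study sequenced small RNAs of whole day 1 adults grown at 20 degrees, in 83 libraries of 28 groups. In the SX1263 background, whose files hold a GFP row, met-2(n4256), set-25(n5021), met-2(n4256);set-25(n5021) and wild type were sampled at P0 and F3, and met-2(n4256) and wild type again at F15. In the EG6089 background, whose files also hold a GFP row, met-2(n4256);set-25(n5021) and wild type were sampled at P0 and F3. met-2 and set-25 encode enzymes that methylate lysine 9 of histone H3, and the series title names the question as the part of that methylation in the inheritance of small RNAs. At each point 1 group was fed bacteria that make dsRNA against GFP, or descended from such animals (the anti-GFP lines), and 1 was fed empty-vector bacteria, or descended from those (the control lines). P0 animals ate RNAi bacteria and later generations ate ordinary bacteria, so that generation and food cannot be told apart between P0 and F3. Each group held 3 libraries, except wild-type SX1263 anti-GFP at P0 with 2. The labels do not say whether replicates were separate cultures, so p-values measure only the spread between these libraries, which may be technical. The labels give neither the sequence or insertion site of the reporters nor the unc-119 allele that each line carries, and CB-unc-119 was not analysed here in EG6089.

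Gene counts per library ran from 3583283 to 18225929 in SX1263 (median 7469120) and from 2134929 to 6102965 in EG6089 (median 3660163). Counts of CB-unc-119 ran from 79 to 41357 per library, and those of unc-119 from 83 to 3543 in SX1263 and from 210 to 1940 in EG6089. Both genes passed the low-count filter in every fit. Levels are in CPM, counts per 1000000 gene counts after scaling by TMM factors, so they are shares of each library and not absolute amounts. A gene was called where the edgeR p-value, adjusted over all genes tested in that fit, was under 0.05. The length of the CB-unc-119 row is not given, and the treatment of reads that match both genes is not given in the sources used here. The levels of the 2 genes are therefore set against each other only as a count ratio whose change between groups is read.

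The endogenous gene lies on chromosome III of WBcel235 from 10902641 to 10908935 on the plus strand. Its 3 annotated transcripts share the exons 10907598 to 10907709 and 10907780 to 10908160, and together their exons cover 923 bases of the 6295-base span. No other annotated gene overlaps it. Both mutated genes lie on the same chromosome, met-2 at a distance of 2.52 Mb and set-25 at 2.37 Mb. Per kilobase of exon, unc-119 held between 20.1 CPM in met-2 F15 anti-GFP lines and 419 CPM in EG6089 met-2;set-25 P0 controls. At these ends of the range 75.1% and 97.9% of annotated genes were lower per kilobase.

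CB-unc-119 small RNAs were lower than in wild type wherever met-2 was mutated, with or without set-25, in the control lines and in the anti-GFP lines. In whole animals, less small RNA per cell and fewer cells that hold it cannot be told apart. At F3 the 3 met-2 control libraries had 607, 559 and 643 CPM, against 1882, 1911 and 1849 CPM in wild-type controls. All 3 met-2 libraries thus lay far below all 3 wild-type libraries, and the change was 3.12-fold (log2 change -1.64, SE 0.21, edgeR adjusted p = 1.1e-05). In this comparison 20.6% of genes had all met-2 libraries below all wild-type libraries. At P0 the means were 675 ± 112 CPM in met-2 controls and 2125 ± 400.0 CPM in wild-type controls (SD, n = 3 each), and at F15 they were 376 ± 80.0 and 1835 ± 346 CPM. These are changes of -1.67 (SE 0.20, adjusted p = 6.5e-06) and -2.30 (SE 0.49, adjusted p = 0.0049) on the log2 scale. Calls of lower small RNAs were common in the same fits, at 9.93% of genes at P0, 10.3% at F3 and 17.4% at F15. By p-value CB-unc-119 ranked 241 of 12657 genes tested at P0, 228 of 11439 at F3 and 1602 of 10675 at F15.

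**Figure D1:**
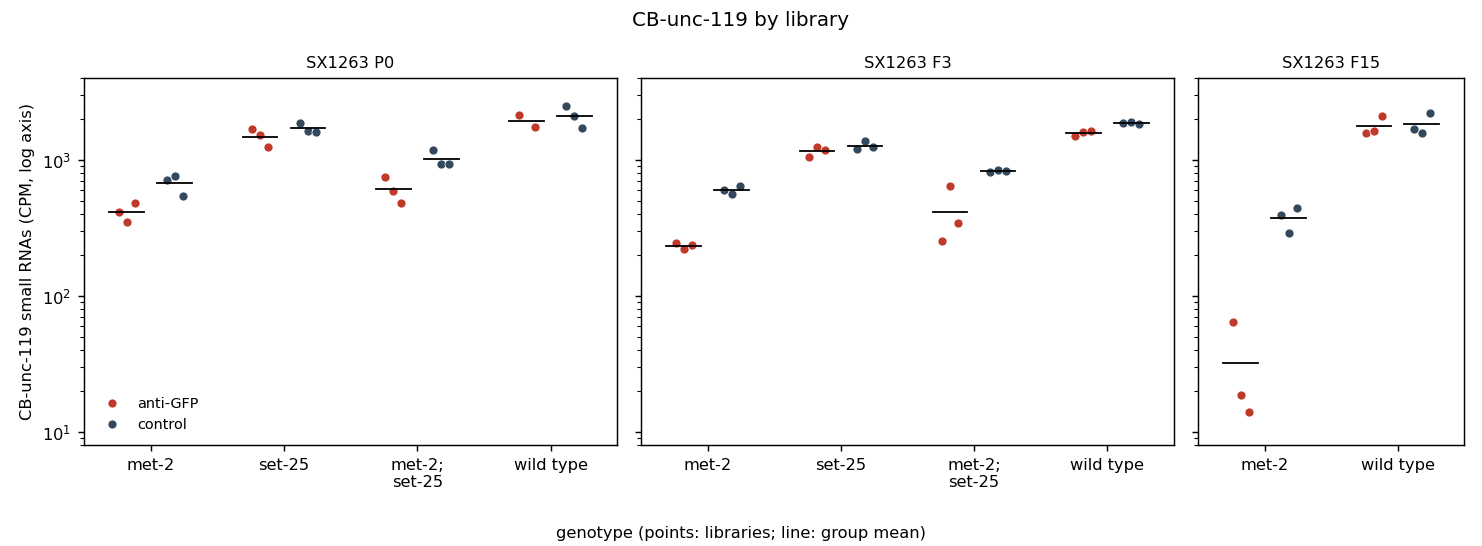
Points are single libraries and lines group means of CB-unc-119 small RNAs (CPM, log axis), by genotype, generation and treatment in SX1263. The met-2 F15 anti-GFP libraries sit between 13.96 and 64.2 CPM, below every other group, and wild-type libraries lie between 1519.6 and 2523 CPM.

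The double mutant met-2;set-25 also had a called fall. Its controls had 815, 851 and 829 CPM at F3, against the wild-type values above. The groups did not overlap, and 23.1% of all genes lay apart in this way with lower mutant values. The log2 change was -1.24 at F3 (SE 0.21, adjusted p = 0.00016) and -1.09 at P0 (SE 0.20, adjusted p = 0.00045), where the means were 1018 ± 144 CPM in met-2;set-25 and 2125 ± 400.0 CPM in wild type. Calls of lower small RNAs took 14.1% of genes at P0 and 19.7% at F3. In set-25 alone no fall was called, with 1274 ± 90.5 CPM in set-25 and 1881 ± 30.9 CPM in wild-type controls at F3 (log2 change -0.58, SE 0.20, adjusted p = 0.27), and the 3 libraries of each group did not overlap, as in 7.69% of genes with lower set-25 values. A fit to these 2 groups alone gave an adjusted p of 0.011. At P0 the set-25 change was -0.31 (adjusted p = 1.0) and the groups overlapped.

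The mutants were also tested against each other. In controls at P0, met-2 was lower than set-25 (log2 change -1.35, SE 0.20, adjusted p = 6.2e-05) and met-2;set-25 was lower than set-25 (log2 change -0.78, SE 0.20, adjusted p = 0.0080). At F3 both were lower again, by log2 changes of -1.06 (adjusted p = 0.00078) and -0.66 (adjusted p = 0.019, and 0.051 without set-25 replicate 2, where the change was -0.62). Lower calls took 9.16% and 11.5% of genes at P0 and 9.93% and 17.3% at F3 in these 2 comparisons. The level in met-2;set-25 stood above that in met-2 by 0.57 in P0 controls (SE 0.19, adjusted p = 0.051) and by 0.40 in F3 controls (adjusted p = 0.16), neither of which passed. The P0 difference passed with replicate number as a block (adjusted p = 0.0057), and these libraries do pair by number. It also passed without met-2 replicate 2 (log2 change 0.69, adjusted p = 0.044).

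The anti-GFP lines of the same mutants had lower CB-unc-119 than wild-type anti-GFP lines too. CB-unc-119 had 418, 351 and 484 CPM in met-2 at P0, against 2146 and 1747 CPM in wild type (log2 change -2.28, SE 0.22, adjusted p = 7.7e-07). The change was -2.81 at F3 (SE 0.22, adjusted p = 3.5e-08) and -5.81 at F15 (SE 0.58, adjusted p = 6.6e-05), where met-2 averaged 32.2 ± 27.8 CPM and wild type 1778 ± 295 CPM (SD, n = 3 each), 56.0-fold apart. For the double mutant it was -1.74 in P0 lines (adjusted p = 1.8e-05) and -1.96 in F3 lines (adjusted p = 1.8e-06). Lower calls held 8.37%, 12.8% and 15.5% of genes for met-2 over the 3 generations, and 10.9% and 16.5% for the double mutant over its 2. The single set-25 mutant had changes of -0.40 and -0.46, which did not pass. Without met-2 anti-GFP replicate 1 the F15 change was -6.78, since that library held the most CB-unc-119 of the 3.

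Endogenous unc-119 was lower in met-2 at P0, not called in the other SX1263 mutant controls, and higher in EG6089 met-2;set-25. In met-2 controls at P0 it had 123, 111 and 105 CPM, against 194, 199 and 167 CPM in wild type. These groups did not overlap, and the fall was 1.67-fold (log2 change -0.74, SE 0.17, adjusted p = 0.0039). In this comparison 16% of genes had all met-2 libraries below all wild-type libraries. At F3 the met-2 mean was 97.8 ± 6.08 CPM and the wild-type mean 123 ± 8.72 CPM (SD, n = 3 each), a change of -0.34 (SE 0.19, adjusted p = 0.22) that passed only in a fit to these 2 groups (adjusted p = 0.026). At F15 the difference was -0.16 (adjusted p = 0.65), and the libraries overlapped. In set-25 it was -0.25 at P0 and -0.27 at F3, with neither called.

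**Figure D2:**
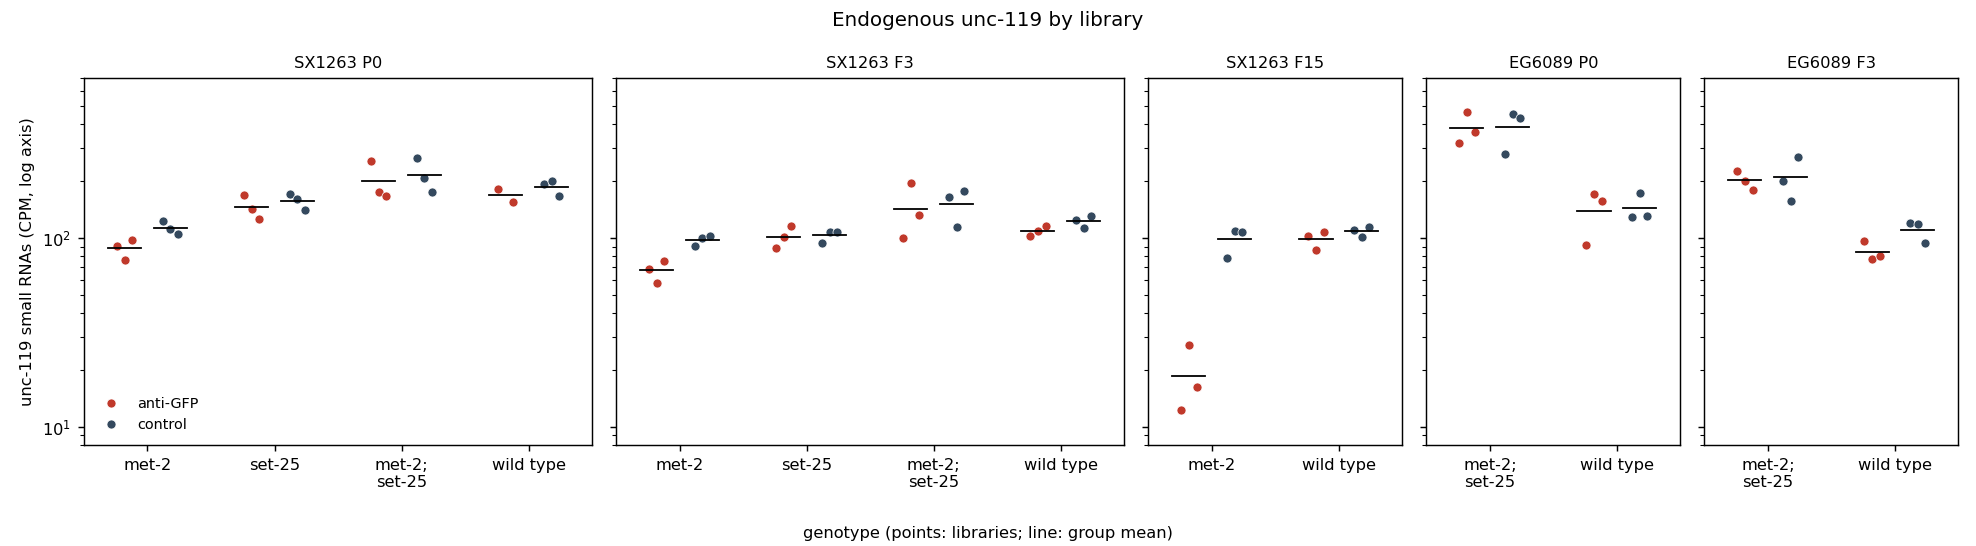
Points are single libraries and lines group means of endogenous unc-119 small RNAs (CPM, log axis) in SX1263 and EG6089, by genotype, generation and treatment. EG6089 met-2;set-25 libraries lie above EG6089 wild type at both generations, and the met-2 F15 anti-GFP libraries of SX1263 are the lowest, at 12.3 to 27.1 CPM.

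In SX1263, met-2;set-25 controls had unc-119 levels of 265, 208 and 175 CPM at P0, against the 194, 199 and 167 CPM of wild type, so the groups overlapped and the change of 0.18 did not pass (SE 0.17, adjusted p = 0.49). At F3 the change was 0.25 (SE 0.19, adjusted p = 0.30). In EG6089 the same pair of mutations went with a rise. There the P0 controls had 277, 452 and 430 CPM in met-2;set-25, against 130, 173 and 131 CPM in wild type. No mutant library fell within the wild-type range. In these controls the groups lay apart, in either direction, for 52% of genes at P0 and 59.7% at F3. The rise was 1.35 on the log2 scale at P0 (SE 0.26, adjusted p = 0.00062) and 1.03 at F3 (SE 0.18, adjusted p = 0.00032), with 209 ± 56.4 CPM in met-2;set-25 and 111 ± 14.6 CPM in wild type at F3 (SD, n = 3 each). Higher calls took 18.5% of genes at P0 and 23.7% at F3 in EG6089. The SX1263 and EG6089 files hold different sets of gene rows, and only the SX1263 files count reads that did not align. The values of the backgrounds are therefore set side by side, and the difference between backgrounds was not tested.

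Among SX1263 controls, unc-119 was higher in met-2;set-25 than in met-2, by 0.92 at P0 (SE 0.17, adjusted p = 0.00095) and 0.59 at F3 (SE 0.19, adjusted p = 0.028). It was also higher in met-2;set-25 than in set-25, by 0.53 at F3 (SE 0.19, adjusted p = 0.040) and, without a call, by 0.43 at P0 (adjusted p = 0.090). Higher calls took 6.31%, 9.24% and 14.2% of genes in the 3 comparisons called. Both F3 calls were lost without single libraries. Against met-2, the adjusted p was 0.077 without met-2 replicate 1, 0.076 without met-2 replicate 2, 0.058 without met-2;set-25 replicate 1 and 0.10 without met-2;set-25 replicate 3. Against set-25 it was 0.12 and 0.17 without met-2;set-25 replicates 1 and 3, and 0.13, 0.080 and 0.080 without set-25 replicates 1, 2 and 3. At P0 the difference from set-25 passed with the replicate block (adjusted p = 0.0090, in libraries that pair by number) and without met-2;set-25 replicate 3 (log2 change 0.59, adjusted p = 0.041). The difference between met-2 and set-25 was -0.49 at P0 (adjusted p = 0.052) and -0.06 at F3.

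In the anti-GFP lines unc-119 fell in met-2 at every generation and rose in EG6089 met-2;set-25. It had 90.3, 76.6 and 97.2 CPM in met-2 at P0, against 182 and 154 CPM in wild type (log2 change -0.99, SE 0.19, adjusted p = 0.0011). At F3 the met-2 libraries had 68.9, 57.6 and 75.3 CPM, against 102, 108 and 115 CPM in wild type, with no overlap (log2 change -0.74, SE 0.19, adjusted p = 0.0064). Such lower values without overlap were seen in 20.2% of genes. At F15 the met-2 libraries had 12.3, 27.1 and 16.3 CPM, against 102, 86.8 and 108 CPM in wild type. That last fall, 5.40-fold (log2 change -2.43, SE 0.25, adjusted p = 8.9e-05), was the deepest of unc-119 in any comparison of a mutant with wild type. In the EG6089 double mutant the rise was 1.42 at P0 (adjusted p = 0.00043) and 1.37 at F3 (adjusted p = 3.3e-05), where higher calls took 20.5% and 23.1% of genes. In the SX1263 double mutant the level changed by 0.19 and 0.37 without a call, and the F3 change passed only without met-2;set-25 replicate 1 (log2 change 0.53, adjusted p = 0.028).

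**Figure D3:**
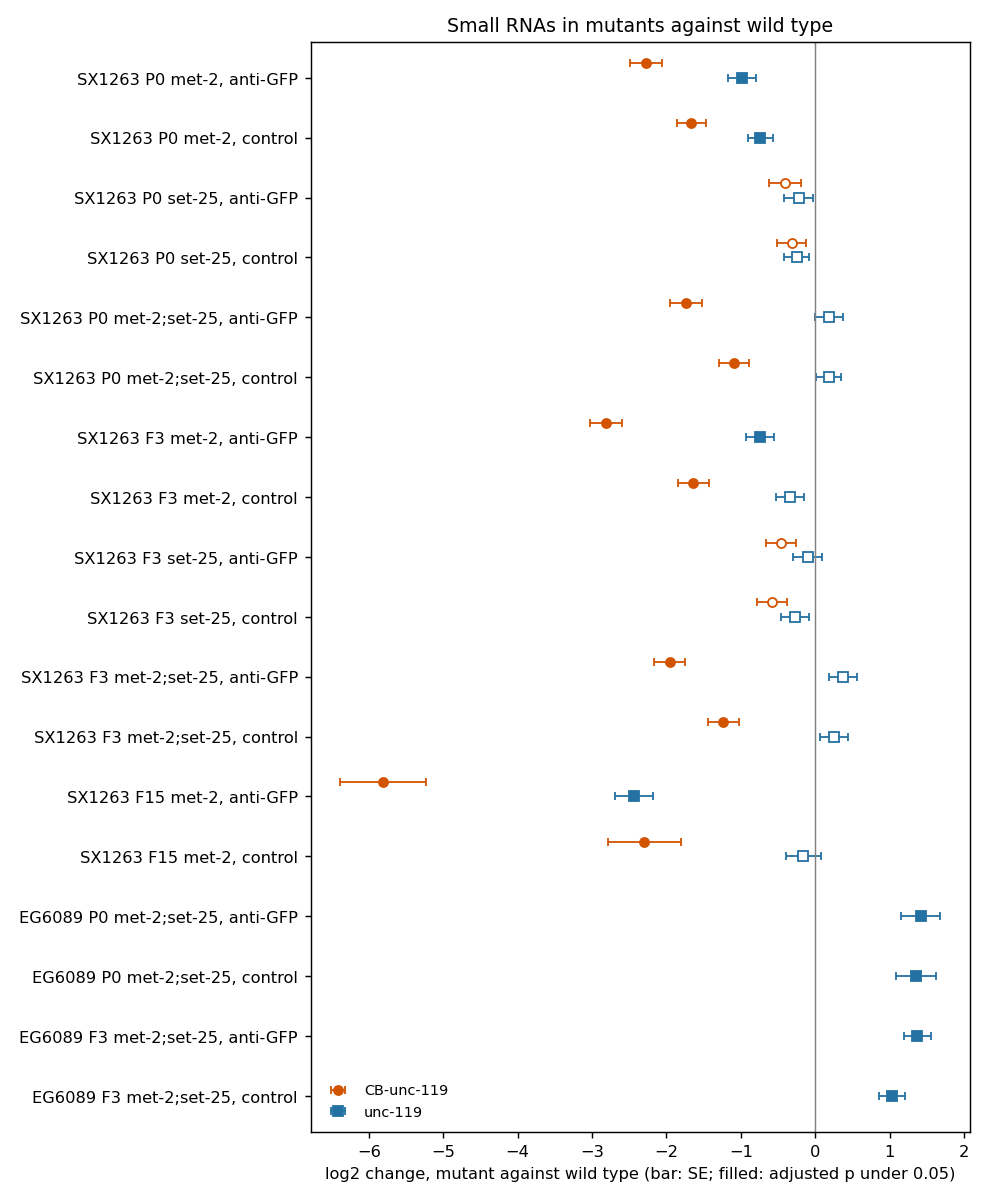
Log2 change of CB-unc-119 and unc-119 in each mutant against wild type of the same background, generation and treatment, with its SE; filled points have an adjusted p under 0.05 over all genes. CB-unc-119 is lower wherever met-2 is mutated, down to -5.81 in met-2 F15 anti-GFP lines, and unc-119 reaches -2.43 in the same lines and 1.42 in EG6089 met-2;set-25 P0 anti-GFP lines.

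Feeding against GFP, or descent from fed animals, went with lower CB-unc-119 in met-2 lines, called at F3 and F15. At F3 CB-unc-119 had 246, 220.3 and 238 CPM in met-2 anti-GFP lines, against 607, 559 and 643 CPM in met-2 controls. All 3 anti-GFP libraries lay below all 3 controls, and the change was 2.67-fold (log2 change -1.42, SE 0.21, adjusted p = 0.0093). It ranked 2 by p-value among the 11439 genes tested, of which 0.105% were called lower. At F15 the values were 64.2, 18.6 and 13.96 CPM in anti-GFP lines, against 393, 289 and 447 CPM in controls, again without overlap. The change was 11.8-fold (log2 change -3.56, SE 0.52, adjusted p = 0.038), in a comparison where 0.0656% of genes were called lower. At P0 the anti-GFP libraries had 418, 351 and 484 CPM and the controls 711, 765 and 549 CPM, which did not overlap but did not pass the test (log2 change -0.71, SE 0.20, adjusted p = 0.72).

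The F15 call on CB-unc-119 was close to the threshold. It was lost without anti-GFP replicate 2 (log2 change -3.27, adjusted p = 0.11) or replicate 3 (-3.21, 0.078), and without control replicate 1 (-3.53, 0.10), replicate 2 (-3.72, 0.051) or replicate 3 (-3.39, 0.11). Without anti-GFP replicate 1, whose 64.2 CPM was the highest of the group, the change was -4.54 (adjusted p = 0.00033). The call was also lost in a fit to the compared groups only (adjusted p = 1.0), without the low-count filter (adjusted p = 0.13) and with replicate number as a block (adjusted p = 0.11), where the libraries share only a number. The direction held in each of these fits. Counts behind the 3 low values were 434, 144 and 79 reads, and the lowest has an exact Poisson 95% interval of 62.5 to 98.5 reads, which covers counting error only.

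Endogenous unc-119 was lower in the same met-2 lines, and at F15 this was called. It had 12.3, 27.1 and 16.3 CPM in anti-GFP lines, against 78.5, 109 and 107 CPM in controls. The groups were far apart (5.34-fold, log2 change -2.42, SE 0.25, adjusted p = 0.0093), and unc-119 ranked 2 by p-value among 10675 genes. In a fit to the compared groups only the adjusted p was 0.33. At F3 the values were 68.9, 57.6 and 75.3 CPM in anti-GFP lines and 91.0, 99.4 and 103 CPM in controls, and at P0 90.3, 76.6 and 97.2 CPM in anti-GFP lines and 123, 111 and 105 CPM in controls. Neither pair overlapped, but the changes of -0.59 (SE 0.19, adjusted p = 0.41) and -0.38 (SE 0.17, adjusted p = 1.0) did not pass.

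The double mutant had lower CB-unc-119 in its anti-GFP lines, without a call. At F3 CB-unc-119 had 253, 650.5 and 346 CPM in anti-GFP lines, against 815, 851 and 829 CPM in controls. The groups did not overlap, but replicate 2 of the anti-GFP lines stood near the controls (log2 change -0.97, SE 0.21, adjusted p = 0.093). Without that library the change was -1.44 (adjusted p = 1.8e-05), and DESeq2 on all libraries gave an adjusted p of 0.0019. At P0 the values were 755, 592 and 481 CPM in anti-GFP lines, against 1184, 933 and 937 CPM in controls, also without overlap (log2 change -0.74, SE 0.20, adjusted p = 1.0). For unc-119 in the double mutant the log2 changes were -0.07 in F3 lines and -0.12 in P0 lines, with overlapping libraries and no call.

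Wild-type and set-25 lines showed no called difference on either gene. CB-unc-119 had 1519.6, 1608 and 1649.6 CPM in wild-type anti-GFP lines at F3, against 1882, 1911 and 1849 CPM in controls, a small difference without overlap (log2 change -0.25, SE 0.20, adjusted p = 1.0). At F15 it had 1582, 1635 and 2117 CPM in wild-type anti-GFP lines and 1699, 1579 and 2228 CPM in controls (log2 change -0.05, SE 0.47). The set-25 lines gave CB-unc-119 changes of -0.19 (P0) and -0.13 (F3), with no call with or without the replicate block. These libraries pair by number, and CB-unc-119 was lower in the anti-GFP library of 3 of 3 pairs at both generations, as were 12.8% of genes at P0 and 14.6% at F3. For unc-119 in SX1263 wild type and set-25 they ran from -0.19 to -0.02, and in EG6089 from -0.39 in wild type at F3 (SE 0.18, adjusted p = 1.0) to -0.01 in met-2;set-25 at P0. Over the 10 SX1263 comparisons the CB-unc-119 groups were apart in 6, all with lower anti-GFP values. Genes with such non-overlapping lower values made up 2.45%, 4.28% and 3.62% over the met-2 generations P0, F3 and F15, 1.98% and 3.82% over the double-mutant generations P0 and F3, and 3.59% in wild type at F3.

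**Figure D4:**
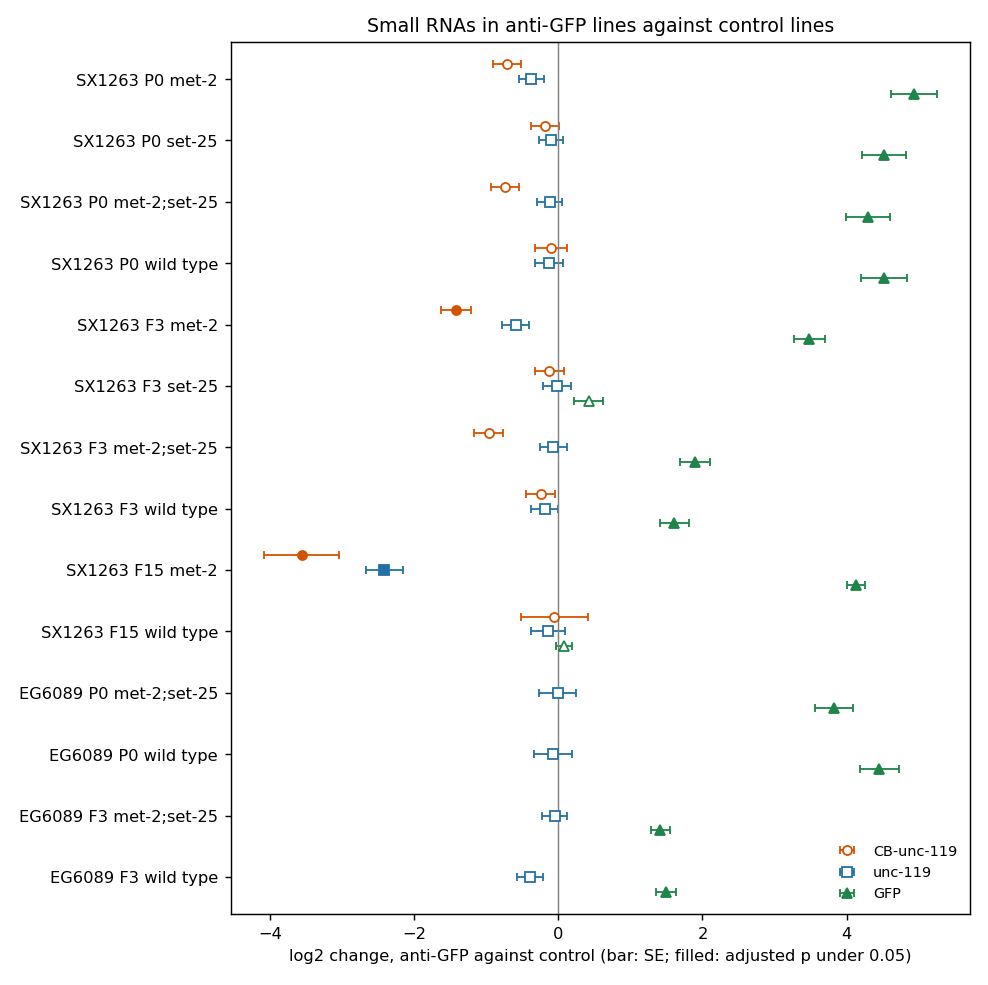
Log2 change in anti-GFP against control lines for CB-unc-119, unc-119 and GFP in every background, generation and genotype, with its SE; filled points have an adjusted p under 0.05 over all genes. In met-2 at F15 CB-unc-119 stands at -3.56, unc-119 at -2.42 and GFP at 4.13.

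The GFP row moved the other way in the same libraries. In met-2, GFP was higher in anti-GFP lines by 3.48 on the log2 scale at F3 and 4.13 at F15, where the CB-unc-119 changes were -1.42 and -3.56. A rise in GFP did not always come with a fall in CB-unc-119. At P0 GFP was higher by 4.51 in wild type and by 4.52 in set-25, and CB-unc-119 changed by -0.10 and -0.19 without a call.

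Whether the anti-GFP effect differed between a mutant and wild type was tested directly, and no such difference passed for either gene with edgeR. Of 7 tests on CB-unc-119 in SX1263, 5 had an unadjusted p under 0.05 and DESeq2 called 1. Of 7 tests on unc-119 in SX1263, 1 had an unadjusted p under 0.05 and DESeq2 called 1. The shares of all genes that pass these thresholds are not given here, so the counts do not show whether either gene was unusual. For CB-unc-119 in met-2 the effect differed from that in wild type by -0.61 at P0 (SE 0.29), -1.17 at F3 (SE 0.29, adjusted p = 0.88) and -3.51 at F15 (SE 0.68, adjusted p = 0.67). DESeq2 gave the F15 difference an adjusted p of 0.00032, and edgeR gave 0.0017 without anti-GFP replicate 1 of met-2 (log2 difference -4.48). The F3 difference passed in a fit to the 4 compared groups only (adjusted p = 0.021). For the double mutant it was -0.64 in P0 lines and -0.72 in F3 lines (adjusted p = 0.95), and the F3 difference passed without met-2;set-25 anti-GFP replicate 2 (-1.19, adjusted p = 0.025). For unc-119 in met-2 it was -2.27 at F15 (SE 0.34, adjusted p = 0.25), with an adjusted p of 5.2e-06 by DESeq2 and of 0.0034 by edgeR without met-2 anti-GFP replicate 2 (-2.64). In EG6089 the unc-119 differences were 0.06 at P0 and 0.34 at F3, with 0 of 2 at an unadjusted p under 0.05 and 0 called by DESeq2.

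Across generations the anti-GFP effect in met-2 grew between F3 and F15 for both genes. The effect on CB-unc-119 at F15 differed from that at F3 by -2.18 (SE 0.41, adjusted p = 0.0080), and that on unc-119 by -1.86 (SE 0.29, adjusted p = 0.00066), in a test that called 0.0708% of genes in this direction. Without met-2 F15 anti-GFP replicate 1 the CB-unc-119 difference was -3.14. In a fit to the 4 groups alone neither passed (adjusted p = 1.0 for both). Within the met-2 anti-GFP lines CB-unc-119 averaged 417 ± 66.4 CPM at P0, 234.8 ± 13.2 CPM at F3 and 32.2 ± 27.8 CPM at F15. The step to F15 was -2.86 (SE 0.31, adjusted p = 9.5e-09, and -3.87 without F15 replicate 1), and the step to F3 was -0.83 (adjusted p = 0.14). For unc-119 the averages were 88.0 ± 10.49 CPM at P0, 67.3 ± 8.99 CPM at F3 and 18.5 ± 7.66 CPM at F15, with a called step to F15 (-1.85, SE 0.21, adjusted p = 3.6e-08). Lower calls took 6% of genes in that step. A fit to the 2 groups alone gave the CB-unc-119 step an adjusted p of 0.12.

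In the met-2 control lines CB-unc-119 averaged 675, 603 and 376 CPM at P0, F3 and F15, and no step was called (F15 against F3 -0.68, SE 0.29, adjusted p = 0.10). The unc-119 level was the same to within its spread at F3 and F15 in these controls (97.8 ± 6.08 and 98.2 ± 17.1 CPM). In wild type, CB-unc-119 means ran from 1592 to 2125 CPM over all generations and treatments, and no step passed. The unc-119 level was lower at F3 than at P0 in all 8 SX1263 pairs, with log2 changes between -0.63 and -0.21, of which 6 had an unadjusted p under 0.05 and none was called by edgeR or DESeq2. Over these 8 steps between 1356 and 3018 of 12706 genes had an unadjusted p under 0.05 by edgeR. The median change of all genes lay between -0.10 and -0.02. In EG6089 the same step was called in 3 of 4 pairs. It was -0.92 (SE 0.23, adjusted p = 0.013) in met-2;set-25 anti-GFP lines, -0.88 (SE 0.23, adjusted p = 0.014) in met-2;set-25 controls and -0.72 (SE 0.23, adjusted p = 0.026) in wild-type anti-GFP lines, among 8.76%, 11.3% and 11.4% of genes called lower. In wild-type controls it was -0.39 (adjusted p = 0.28).

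These EG6089 steps were each lost without single libraries. In met-2;set-25 anti-GFP lines the adjusted p was 0.063 without F3 replicate 3 and 0.12 without P0 replicate 2. In met-2;set-25 controls it was 0.051 and 0.072 without F3 replicates 1 and 2, and 0.10 without P0 replicate 2. In wild-type anti-GFP lines it was 0.086 and 0.081 without F3 replicates 2 and 3, and 0.14 without P0 replicate 2. In SX1263 the met-2;set-25 anti-GFP step of unc-119 passed only without F3 replicate 2 (-0.74, adjusted p = 0.042).

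The count ratio of CB-unc-119 to unc-119 within a library does not depend on the scaling factors. It was lower than in wild type wherever met-2 was mutated. In controls at F3 it averaged 6.18 ± 0.52 for met-2, 5.69 ± 1.54 for met-2;set-25, 12.4 ± 0.72 in set-25 and 15.4 ± 1.37 in wild type (SD, n = 3 each). All 6 libraries with a met-2 mutation lay between 4.65 and 7.46, and all set-25 and wild-type control libraries between 11.6 and 16.8. At P0 the averages were 5.96, 4.76, 10.9 and 11.3 in the same order of genotypes. At F15 they were 3.94 ± 1.19 in met-2 and 16.8 ± 2.27 in wild type. Mutant and wild-type controls did not overlap in 6 of 7 comparisons, the exception being set-25 at P0. With 3 libraries a group, an exact two-sided permutation test can give no p below 0.1, which these 6 comparisons reached (adjusted p = 0.12 over 7).

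**Figure D5:**
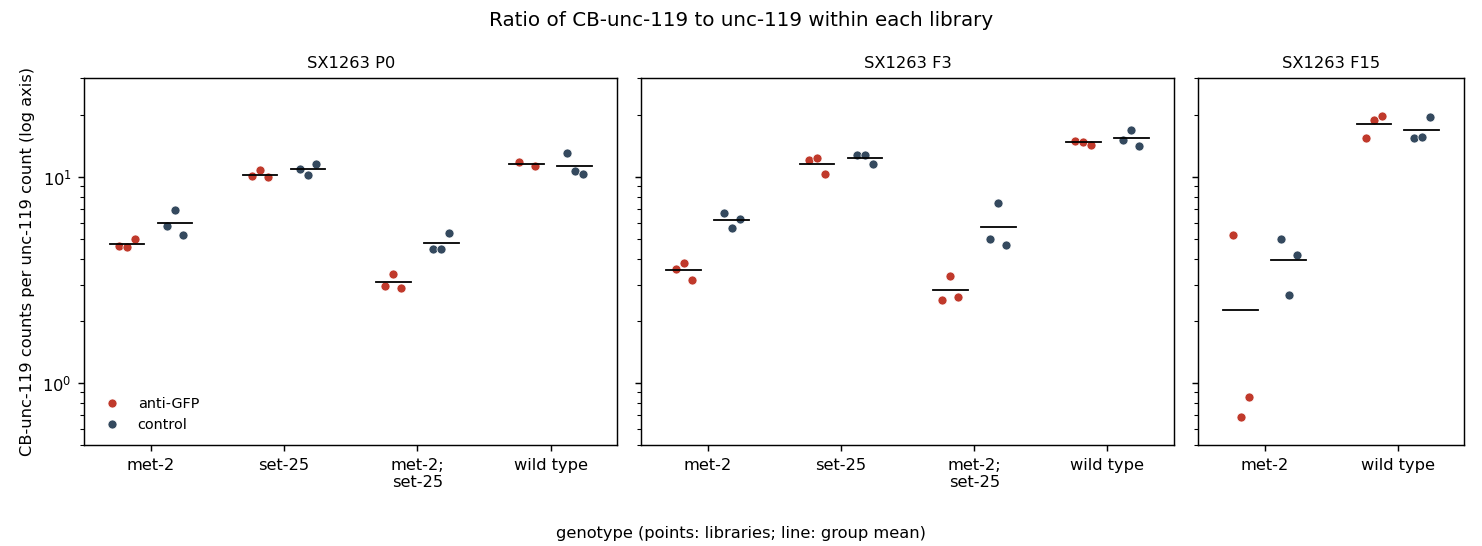
Points are single libraries and lines group means of the count ratio of CB-unc-119 to unc-119 within a library (log axis) in SX1263. Libraries of the met-2 and met-2;set-25 genotypes lie at or below 7.46, and all set-25 and wild-type libraries lie at or above 9.97.

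The ratio was also lower in the anti-GFP lines of genotypes with a met-2 mutation at P0 and F3. At F3 it averaged 3.52 ± 0.34 in met-2 anti-GFP lines and 6.18 ± 0.52 in met-2 controls. In the double mutant it averaged 2.82 ± 0.43 in F3 anti-GFP lines and 5.69 ± 1.54 in F3 controls. At P0 it was 4.73 ± 0.22 in met-2 anti-GFP lines and 5.96 ± 0.83 in met-2 controls, and 3.07 ± 0.26 in double-mutant anti-GFP lines and 4.76 ± 0.50 in their controls. The groups did not overlap in these 4 comparisons (exact permutation p = 0.1, adjusted p = 0.25 over 10). At F15 the met-2 anti-GFP libraries had ratios of 5.23, 0.686 and 0.859, against 5.004, 2.66 and 4.16 in controls, which overlap (exact permutation p = 0.4). Replicate 1 of these anti-GFP lines held the most CB-unc-119 and the least unc-119 of the 3. In wild type the means were 14.7 ± 0.32 in anti-GFP lines and 15.4 ± 1.37 in controls at F3, and 17.99 ± 2.23 in anti-GFP lines and 16.8 ± 2.27 in controls at F15.

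The 20 SX1263 groups can be ordered by level. CB-unc-119 ran from 32.2 CPM in met-2 F15 anti-GFP lines to 2125 CPM in wild-type P0 controls, a wider span than the 18.5 to 216 CPM of unc-119. All 10 groups with a met-2 mutation lay below all 10 others for CB-unc-119. Among the highest groups neighbours can differ by less than their SD, as wild-type F15 controls (1835 ± 346 CPM) and wild-type F3 controls (1881 ± 30.9 CPM) do. The lowest steps are wider, from 32.2 ± 27.8 CPM in met-2 F15 anti-GFP lines to 234.8 ± 13.2 CPM in met-2 F3 anti-GFP lines and 376 ± 80.0 CPM in met-2 F15 controls. For unc-119 the order mixed genotypes. After met-2 anti-GFP lines at F15 (18.5 CPM), F3 (67.3 CPM) and P0 (88.0 CPM) came met-2 F3 controls (97.8 CPM), met-2 F15 controls (98.2 CPM), wild-type F15 anti-GFP lines (98.9 CPM) and both set-25 groups at F3 (102 and 103 CPM), whose ranges overlap. The 2 met-2;set-25 P0 groups were highest (199 ± 49.2 and 216 ± 45.1 CPM).

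Over these 20 group means the 2 genes had a Pearson r of 0.77 on the log2 (CPM + 1) scale, as a description of groups that share library sets. The Spearman value was 0.52. By r, unc-119 ranked 408 among 8136 genes likened to CB-unc-119, and GFP had an r of -0.33. The rows most like CB-unc-119 by Pearson r were Y48C3A.1 (r = 0.93), K11H12.9 (0.91), nhr-180 (0.91), a nuclear hormone receptor family gene, Y32G9A.2 (0.90) and F31E9.3 (0.90). The most opposite were del-3 (-0.94), of the degenerin channel family, rnh-1.2 (-0.93), an RNase H gene, and vab-8 (-0.91), a kinesin-like gene of cell and axon migration. For unc-119 they were rabr-1 (0.86), F25B4.4 (0.86), K09D9.12 (0.86), gst-30 (0.85), a glutathione S-transferase gene, and sol-2 (0.85), which acts with a glutamate receptor. The most opposite to unc-119 were gbf-1 (-0.93), hpo-32 (-0.87) and nphp-4 (-0.87), the last a gene of the cilium's transition zone. These names depended on the measure. By Spearman correlation K11H12.9 (0.98) stayed among the rows most like CB-unc-119 and del-3 (-0.94) among the most opposite. The other rows named for CB-unc-119 were replaced. For unc-119 all named rows were replaced, with prdx-3 (0.95) the most alike and lars-1 (-0.93) the most opposite. In EG6089, with 8 groups, 738 of 7699 genes had an r above 0.9 with unc-119, led by ifc-2 (0.99), an intermediate filament gene.

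Genes that share a pathway, a tissue or a chromosome region with unc-119 were read in the same comparisons. The pathway list of 13 genes held the related chaperone gene pdl-1, ARL GTPase genes, some of which release the cargo, and genes of lipid-modified G proteins. In met-2 against wild-type controls at F3, 1 of its 6 members that passed the low-count filter was called higher and none lower. That gene, nphp-2, the inversin homologue of the ciliary pathway, had 18.2 ± 6.01 CPM in met-2 and 6.43 ± 1.23 CPM in wild type (SD, n = 3 each; log2 change 1.51, adjusted p = 0.0038). The list's median change was 0.29, against 0.03 over all 11439 genes, of which 2043 (17.9%) were called higher and 1175 (10.3%) lower. In met-2 at F15, anti-GFP against control, none of 6 was called, the median being -0.07 against -0.01 over 10675 genes, of which 3 were called higher and 7 lower. Its most abundant members were arl-13, a small GTPase gene of cilia, with 647 ± 261 CPM in anti-GFP lines and 571 ± 208 CPM in controls, and egl-30, a Gq alpha gene, with 151 ± 60.7 CPM in anti-GFP lines and 740.1 ± 1137 CPM in controls. In EG6089 met-2;set-25 against wild-type controls at F3, 4 of 6 were called higher and 1 lower, beside 2121 higher (23.7%) and 2427 lower (27.1%) of all 8943 genes.

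Of the pan-neuronal list, 7 of 21 tested genes were called higher and none lower in met-2 controls at F3, beside 17.9% and 10.3% of all genes in that fit, with a median change of 0.41. The largest were rgef-1, a Ras exchange factor gene (27.2 ± 17.8 CPM in met-2 and 0.336 ± 0.179 CPM in wild type), egl-3, a neuropeptide convertase gene (47.0 ± 49.2 CPM in met-2 and 2.10 ± 0.60 CPM in wild type), and unc-104, the gene of a synaptic vesicle kinesin (43.2 ± 53.3 CPM in met-2 and 10.02 ± 1.84 CPM in wild type). Their log2 changes were 6.27 (adjusted p = 2.2e-06), 4.48 (adjusted p = 0.0011) and 2.11 (adjusted p = 0.0078), while unc-119 was lower in the same comparison without a call. In EG6089 met-2;set-25 against wild-type controls at F3, members of the list were called in both directions. Of all genes 23.7% were called higher there and 27.1% lower. In met-2 at F15, anti-GFP against control, none of 19 was called (median -0.05). The most abundant, unc-10 of the synaptic active zone, had 645 ± 159 CPM in anti-GFP lines and 457 ± 162 CPM in controls, and egl-21, a neuropeptide carboxypeptidase gene, 292 ± 82.6 CPM in anti-GFP lines and 471 ± 219.7 CPM in controls.

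Of the 19 annotated genes within 50 kb of unc-119, 15 passed the filter. In met-2 controls at F3, 1 of the 15 was called higher and 1 lower, both of low level, beside 17.9% and 10.3% of all genes. They were C44B9.2 (1.61 ± 0.19 CPM in met-2 and 0.293 ± 0.259 CPM in wild type, log2 change 2.42, adjusted p = 0.021) and fbxb-87, of the large F-box B family (2.53 ± 1.85 CPM in met-2 and 6.71 ± 1.10 CPM in wild type, log2 change -1.40, adjusted p = 0.045). The other nearest tested genes, com-1, athp-1 and C44B9.3 before unc-119 and M142.5, M142.8, rle-1, strd-1 and zig-5 after it, had changes between -0.23 and 0.27 with no call. In met-2 at F15, anti-GFP against control, none of the 15 was called. Among the 10 nearest the changes ran from -0.73 in C44B9.2 to 0.61 in fbxb-87, and com-1, whose span of 10896363 to 10901836 is the closest before unc-119, had a change of -0.09 (SE 0.11). The most abundant neighbours were zig-5, an immunoglobulin-domain gene (2142 ± 549 CPM in anti-GFP lines and 1968 ± 590 CPM in controls), and vps-50 (209.8 ± 65.3 CPM in anti-GFP lines and 605 ± 618 CPM in controls). In EG6089 met-2;set-25 controls at F3, 3 of 14 neighbours were called higher and 4 lower, shares near the 23.7% and 27.1% of all genes in that fit.

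Summed levels of marker lists of other tissues differed between met-2 and wild-type controls, in counts that show small RNAs on these genes and not the cells. At F3 the summed level of 8 sperm genes ran from 201 to 317 CPM in met-2 controls and from 69.5 to 88.5 CPM in wild-type controls. That sum rests on fer-1. Without it the other 7 genes summed to between 14.96 and 23.9 CPM in met-2 and between 65.4 and 83.4 CPM in wild type, so that the direction turned. That of 6 intestine genes ran from 33.1 to 50.1 CPM in met-2 controls and from 17.8 to 20.8 CPM in wild-type controls, that of 8 germ-line genes from 1452 to 1516 CPM in met-2 and from 1594 to 1659.7 CPM in wild type, and that of 22 pan-neuronal genes from 1661 to 2372 CPM in met-2 and from 1458 to 1647 CPM in wild type. Without glh-1, the germ-line member with the widest difference in level, the germ-line sums of met-2 (1101 to 1175 CPM) and wild type (1155 to 1217 CPM) overlapped, and the intestine and pan-neuronal sums stayed higher in met-2 without pept-1 and unc-10, the widest of theirs. These omissions were chosen after seeing the data. No marker was at 0 in all libraries of any of these groups. The part of these shifts in the mutant differences of CB-unc-119 and unc-119 was not tested.

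Of the sperm list 3 of 7 tested genes were called higher and 1 lower in met-2 against wild-type controls at F3, where 17.9% of all genes were called higher and 10.3% lower. With lists this short the counts are given as a description. The calls were led by fer-1, needed for membrane fusion in sperm (243 ± 59.8 CPM in met-2 and 4.07 ± 1.01 CPM in wild type), and by spe-41, a sperm channel gene, which fell (8.76 ± 1.24 CPM in met-2 and 70.7 ± 9.32 CPM in wild type). Among the others called higher was spe-11, at 1.83 ± 1.05 CPM in met-2 and 0.388 ± 0.182 CPM in wild type. Of the intestine list 3 of 5 were called higher and none lower. These were the peptide transporter gene pept-1 (8.98 ± 2.04 CPM in met-2 and 1.81 ± 0.43 CPM in wild type), the intermediate filament gene ifb-2 (2.76 ± 1.32 CPM in met-2 and 0.454 ± 0.313 CPM in wild type) and the yolk protein gene vit-5 (9.20 ± 2.14 CPM in met-2 and 4.46 ± 0.64 CPM in wild type). Of the germ-line list 2 of 8 fell, the germ granule genes glh-1 (352 ± 10.2 CPM in met-2 and 436 ± 7.88 CPM in wild type) and pgl-1 (341.5 ± 8.99 CPM in met-2 and 421 ± 14.3 CPM in wild type), and none rose.

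In met-2 at F15 the sums of anti-GFP lines and controls overlapped for all 4 lists, and edgeR called no member, as it called only 10 of 10675 genes in all, while 453 had an unadjusted p under 0.05. The germ-line gene glh-1 had 386 ± 26.4 CPM in anti-GFP lines and 369 ± 37.5 CPM in controls, and pgl-1 321 ± 10.7 CPM in anti-GFP lines and 282 ± 47.3 CPM in controls. The sperm genes fer-1 and spe-4 had 79.0 ± 62.4 and 22.5 ± 28.1 CPM in anti-GFP lines, and 74.3 ± 57.01 and 19.5 ± 18.5 CPM in controls. The yolk protein genes vit-2 and vit-5 had 16.5 ± 2.23 and 10.3 ± 3.63 CPM in anti-GFP lines, and 12.8 ± 3.25 and 8.10 ± 2.31 CPM in controls. Both members of the pair, CB-unc-119 and unc-119, were among the 7 genes called lower in these lines.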

How the data were processed

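Small RNAs of 59 SX1263 and 24 EG6089 libraries were analysed from whole-number read counts per gene that the authors deposited for each library. Tools listed without versions in the submitters' processing notes were Bowtie2, HTSeq, cutadapt, DESeq2 and FastQC, beside the builds ce11 and WBcel235. Strand, length filters and the handling of reads that fit both unc-119 rows are not given in the sources used here. The 5 counter rows of each file held 50.8% to 62.0% of records in SX1263 and 29.2% to 42.4% in EG6089, and were left out of depths and tests. Reads not aligned were recorded as 0 in all 24 EG6089 libraries and above 0 in all 59 SX1263 libraries. These percentages are therefore not comparable between backgrounds. No library repeated another's counts. Rows matched to the WBcel235 annotation numbered 20159 in SX1263 and 19902 in EG6089.

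Counts were tested with edgeR 4.0.16 (R 4.3.3): TMM factors, filterByExpr with a minimum count of 10 and a total of 15, a robust quasi-likelihood F test, and Benjamini-Hochberg adjustment over all genes tested. Treatments and genotypes were compared in a fit of all groups of that background and generation, and generations in a fit of all groups of the background. The fit was also run on simulated counts, only for SX1263 F3 and EG6089 F3 and only for a contrast between groups. Fits of other generations or across generations, and differences between effects, were not tried in this way. RLE scaling, no filter, DESeq2 1.42.0, a replicate block, the compared groups only and leaving out each library were alternatives. Replicate numbers from the labels were taken to pair libraries where deviations from group means correlated above 0.1 in every pair, which held in 7 of 14 treatment, 2 of 9 mutant control, 1 of 9 mutant anti-GFP, 2 of 6 between-mutant and 3 of 16 generation comparisons. Log2 count ratios were compared by exact two-sided permutation tests that took libraries as unpaired, also where replicate numbers pair them. Poisson intervals are exact at 95% and cover counting error only. Likeness used genes with a mean of at least 5 CPM.

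The members, gene lists and tests were chosen with earlier results of these data known. Genes named beside the members were the 5 most alike and 3 most opposite rows, the 5 nearest tested genes on each side of unc-119, and, of each list in the met-2 F3 control and met-2 F15 anti-GFP comparisons, up to 3 called members by size of change or, with none called, the 2 most abundant. The alike and opposite rows were taken by Pearson r. The most alike and most opposite to unc-119 by Spearman correlation are named as well.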

Additional observations from a re-analysis of the deposited data

Results flagged for a closer look

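The anti-GFP effect in met-2 differed between F15 and F3 for both genes, by the test of that difference. For CB-unc-119 it differed by -2.18 on the log2 scale (edgeR adjusted p = 0.0080), the effect being -3.56 at F15 and -1.42 at F3. At both generations all 3 anti-GFP libraries lay below all 3 control libraries, as in 4.28% of genes at F3 and 3.62% at F15. For unc-119 it differed by -1.86 (edgeR adjusted p = 0.00066), with effects of -2.42 at F15 and -0.59 at F3. In wild type the same difference was 0.19 for CB-unc-119 and 0.04 for unc-119, with neither called.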

How the results depend on the processing

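With 3 libraries a group, single libraries carried several calls. The falls of CB-unc-119 in met-2 and met-2;set-25 against wild type, in control and anti-GFP lines, were called under every alternative and without every library. So were the EG6089 rises of unc-119 in met-2;set-25. The RLE scaling moved the median of all genes by -0.16 to 0.16 against TMM, and by over 0.1 in 3 of 71 comparisons, all in EG6089. These were met-2;set-25 against wild type in P0 controls (0.16) and the wild-type step to F3 in anti-GFP lines (-0.16) and controls (-0.10 after rounding). Low counts limit the met-2 F15 anti-GFP values of both genes. The cause of the changes below was not tested.

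A fit to the compared groups only ended the calls on the met-2 F15 effect (CB-unc-119 -3.56, unc-119 -2.42), on its difference from F3 (-2.19 and -1.87), on the CB-unc-119 step to F15 in met-2 anti-GFP lines (-2.85), and on unc-119 in F3 controls of met-2;set-25 against met-2 (0.60) and set-25 (0.53). It gave calls for CB-unc-119 in the met-2 F3 effect against wild type (-1.13) and in set-25 F3 controls (-0.57), and for unc-119 in met-2 F3 controls (-0.34). Without a filter, calls were lost for CB-unc-119 in the met-2 F15 effect (-3.54) and for unc-119 in met-2;set-25 against set-25 at F3 (0.48), and the unc-119 step to F15 in met-2 controls turned to -0.029. DESeq2 also called the CB-unc-119 effect in met-2;set-25 at F3 (-0.98), the F15 effect in met-2 against wild type (CB-unc-119 -3.52, unc-119 -2.29), and in P0 controls CB-unc-119 in met-2;set-25 against met-2 (0.59, also called with RLE at 0.59) and unc-119 in met-2 (-0.47) and met-2;set-25 (0.46) against set-25.

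With replicate number as a block, CB-unc-119 in met-2;set-25 against met-2 P0 controls (0.57) and unc-119 against set-25 P0 controls in met-2;set-25 (0.42) and met-2 (-0.49) passed, and the CB-unc-119 effect in met-2 at F15 did not (-3.65). In the last 2 of these the libraries share only a number. The block changed no other call. The EG6089 P0 effects on unc-119 turned to 0.0046 with DESeq2, 0.0046 with RLE and 0.0033 with the block in met-2;set-25, and to 0.015 with DESeq2 and 0.015 with RLE in wild type, and their difference to -0.010 with both.

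Leaving out each library gave these ranges for results that changed side of the threshold. For CB-unc-119 the effect ran from -4.54 to -3.21 in met-2 F15 and from -1.44 to -0.73 in met-2;set-25 F3, its difference from wild type from -4.48 to -3.15 and from -1.19 to -0.49 in the same lines, and the difference of met-2;set-25 controls from 0.44 to 0.69 against met-2 at P0 and from -0.71 to -0.62 against set-25 at F3. For unc-119 the difference of the met-2 F15 effect from wild type ran from -2.64 to -2.04. Its difference in met-2;set-25 controls ran from 0.47 to 0.78 against met-2 at F3, and against set-25 from 0.38 to 0.69 at F3 and from 0.29 to 0.59 at P0. In F3 anti-GFP lines of met-2;set-25 against wild type it ran from 0.079 to 0.53. The unc-119 step to F3 ran from -1.03 to -0.73 and from -1.11 to -0.71 in EG6089 met-2;set-25 anti-GFP and control lines, from -0.95 to -0.56 in EG6089 wild-type anti-GFP lines and from -0.74 to -0.23 in SX1263 met-2;set-25 anti-GFP lines.

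The remaining results that changed sign had no call under any left-out library. For CB-unc-119 the effect ran from -0.27 to 0.055 in wild type P0 and from -0.23 to 0.14 in wild type F15, the step to F15 in wild-type controls from -0.15 to 0.063, the difference of the P0 effect in set-25 from -0.24 to 0.082, and the difference of the F3 from the P0 effect from -0.71 to 0.025 in met-2;set-25, from -0.032 to 0.18 in set-25 and from -0.27 to 0.030 in wild type. For unc-119 the effect ran from -0.26 to 0.0016 in wild type P0, from -0.12 to 0.067 in set-25 F3, from -0.35 to 0.049 and from -0.37 to 0.11 in met-2;set-25 P0 and F3, and in EG6089 from -0.24 to 0.18 in wild type P0 and from -0.19 to 0.11 and from -0.20 to 0.17 in met-2;set-25 P0 and F3. Its difference from wild type ran from -0.10 to 0.16 in set-25 P0, from -0.20 to 0.20 and from -0.18 to 0.30 in met-2;set-25 P0 and F3, and from -0.17 to 0.23 in EG6089 P0. Its difference between the F3 and P0 effects ran from -0.25 to 0.26 in met-2;set-25, from -0.0074 to 0.22 in set-25, from -0.14 to 0.087 in wild type and from -0.20 to 0.19 in EG6089 met-2;set-25, and between F15 and F3 from -0.0082 to 0.13 in wild type. The unc-119 step to F15 in met-2 controls ran from -0.13 to 0.097, and its difference in P0 anti-GFP lines of met-2;set-25 from -0.011 to 0.32.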
